A study of Arabidopsis thaliana with 8 samples.

Results

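Accessible chromatin of RIL149 and RIL50 was compared at generation 3, in 4 of the 8 libraries of the series. The libraries were chosen by their labels, as lineages 1 and 2 of each line, all of sublineage 1. RIL149 and RIL50 are Arabidopsis thaliana recombinant inbred lines from a cross of the accessions Ler and Cvi, and per the series text their rates of spontaneous CG epimutation contrast. Nuclei came from about 200 mg of shoots of untreated seedlings that had grown for 7 to 9 days at 25 °C in long days of 16 h light and 8 h dark. Each line stands for 1 mosaic of the parental genomes, so an effect of the line and an effect of any single parental segment cannot be told apart. The labels do not say whether a library came from 1 plant or from a pool. The spread among libraries behind a p-value here may thus be technical.

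ATAC-seq uses the transposase Tn5, which inserts sequencing adapters where DNA is not wrapped tightly in nucleosomes. A peak is a stretch with more insertions than its surroundings, and in plants most peaks lie at promoters and other gene ends, where transcription factors bind. A recombinant inbred line is a fixed mosaic of its parents, so lines of this kind differ in sequence wherever they inherited different parents, and are alike elsewhere. CG methylation is copied at each cell division by a maintenance methyltransferase and its helpers, and an epimutation is a failure or error of that copying that is then inherited.

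The peaks had been called in every library separately, on the TAIR10 build. Peaks of the 5 nuclear chromosomes that shared at least 1 bp were merged into 21363 regions. The fold of a peak is the authors' ratio of the reads piled up at its summit to the local background in the same library. A region with several peaks was given their highest fold and their summed width. Because a library pools many nuclei, a lower fold cannot tell fewer nuclei with open chromatin from less open chromatin in each nucleus. Photosynthesis genes were open: in all 4 libraries an end peak was found at 19 of 21 photosynthesis genes and 9 of 9 housekeeping genes, against 6 of 10 mesophyll and guard cell genes, 2 of 8 shoot meristem genes, 1 of 10 root identity genes and 44.9% of all 27444 protein-coding genes.

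Fewer peaks were listed in RIL149 than in RIL50, and 1 library set much of the difference. RIL149 lineage 1 had 17132 nuclear peaks and RIL149 lineage 2 had 13186, while RIL50 lineage 1 had 19193 and RIL50 lineage 2 had 18447. The lines did not overlap, but with 2 libraries each the two-sided exact permutation test cannot go below p = 0.333, which is the value it gave. Covered length was 6.12 and 4.26 Mb in RIL149 and 7.06 and 7.16 Mb in RIL50 (exact permutation p = 0.333), and median peak width was 287 and 259 bp against 296 and 299 bp (exact permutation p = 0.333). Median fold was 4.40 and 4.28 in RIL149, between the 5.16 and 4.07 of RIL50 (exact permutation p = 1). RIL149 lineage 2 thus held the fewest and narrowest peaks. Without it, the difference in mean peak number, RIL149 minus RIL50, went from -3661 to -1688.

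Background pileup did not follow peak number. It is the local background at the peaks, recovered from the peak statistics, and not a read total. The pileup was 11.8 and 12.5 in RIL149 and 8.71 and 25.3 in RIL50, so the library with the most peaks had the lowest pileup. RIL50 lineage 2, with the highest pileup, listed weaker peaks than the others: 4.84% of its peaks had a fold under 2, against 0.917% to 1.33%. What part depth or library quality has in the line difference was not tested.

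**Figure D1:**
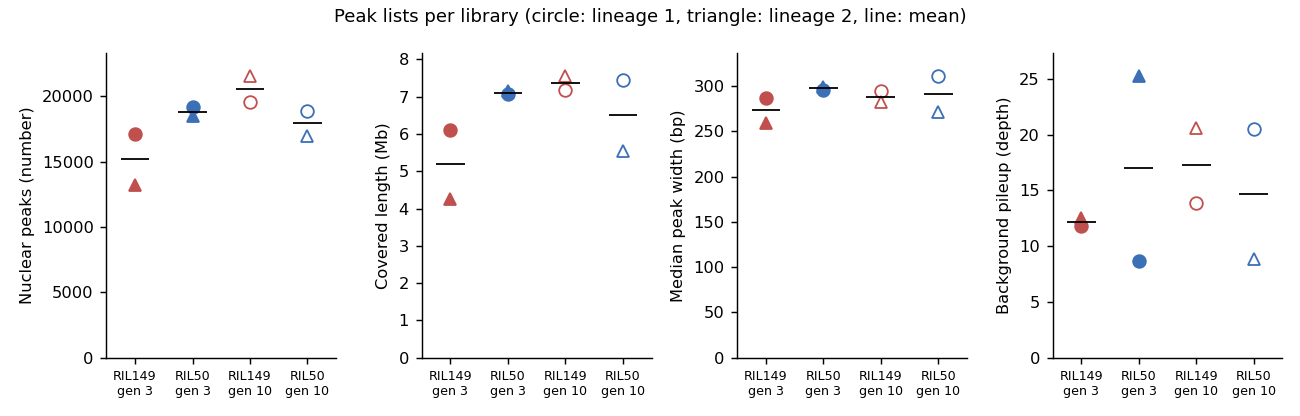
Number of nuclear peaks, covered length in Mb, median peak width in bp and recovered background pileup for each library, by line and generation; circles are lineage 1, triangles lineage 2, and the short line is the mean of 2 libraries. At generation 3 (filled) the RIL149 libraries have 17132 and 13186 peaks, below the 19193 and 18447 of RIL50, while at generation 10 (open) the RIL149 libraries lie above those of RIL50.

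The libraries shared a large common set of open regions. All 4 libraries held a peak in 11514 regions (53.9%), and these were also the strongest, with a median fold of 5.74. The next most frequent combination was a peak in every library but RIL149 lineage 2, in 2914 regions (13.6%) with a median fold of 3.46. Regions in RIL50 lineage 1 alone numbered 1562 and in RIL50 lineage 2 alone 1092, against 735 in RIL149 lineage 1 alone and 74 in RIL149 lineage 2 alone. The list of RIL149 lineage 2 was close to a subset of the others: 94.7% of its covered bases were covered in RIL149 lineage 1, 93.6% in RIL50 lineage 1 and 95.6% in RIL50 lineage 2. Shared over joint covered length, the Jaccard index, was 63.5% for the RIL149 pair and 74.4% for the RIL50 pair. Between lines it was 67.5% and 68.8% for RIL149 lineage 1 and 54.4% and 55.4% for RIL149 lineage 2. RIL149 lineage 1 therefore overlapped each RIL50 library more than it overlapped the other RIL149 library.

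**Figure D2:**
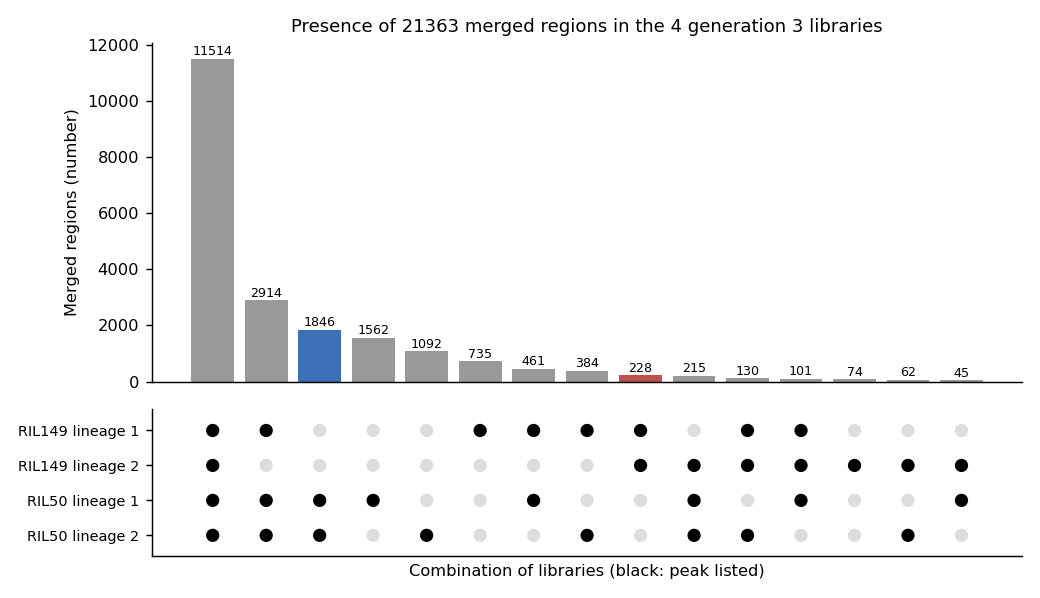
Number of merged regions for each combination of the 4 generation 3 libraries, with black dots below each bar marking the libraries that list a peak. The red bar is the 228 regions in both RIL149 libraries and no RIL50 library, and the blue bar the 1846 regions in both RIL50 libraries and no RIL149 library.

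Regions open in 1 line only were more frequent in RIL50. Most of the RIL50 ones were weak and were not again open in RIL50 only at the later generation. A region was called line-specific when both libraries of 1 line listed a peak and neither of the other did. There were 228 regions only in RIL149 (1.07% of all regions) and 1846 only in RIL50 (8.64%). These calls are of presence in a list and carry no p-value. The lower of the 2 folds had a median of 3.25 in the regions only in RIL149 and 2.57 in those only in RIL50. For comparison, the median was 4.36 over all 11973 regions held by both RIL149 libraries and 4.30 over all 16489 held by both RIL50 libraries. The line-specific regions were also narrow, with a median width of 210 bp in RIL149 and 199 bp in RIL50, against 317 and 325 bp in all regions of those lines. The imbalance was smaller with lists of equal length: with the 13186 peaks of highest significance taken from each library, RIL149 alone held 494 regions and RIL50 alone held 682.

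The generation 10 libraries, which the calls did not use, showed which regions were line-specific again. Of the 228 regions only in RIL149, 174 (76.3%) were again in both RIL149 libraries and no RIL50 library at generation 10, and 14 (6.14%) were in all 4 libraries. Of the 1846 regions only in RIL50, 218 (11.8%) were line-specific again, and 498 (26.98%) were in all 4. A further 164 (8.88%) were in both RIL50 libraries and 1 RIL149 library. Regions that were not line-specific again were thus not all lost from their own line. At least 1 RIL149 library of generation 10 held a peak in 1311 (71.0%) of the regions that had been only in RIL50, whereas RIL50 libraries of generation 10 held one in 46 (20.2%) of the regions that had been only in RIL149. Over all regions, 5.06% were only in RIL149 at generation 10, 1.44% only in RIL50 and 66.4% in all 4 libraries. With equal list lengths in all 8 libraries, a choice made after seeing the data, the repeated shares were 39.1% for RIL149 and 33.1% for RIL50, so the difference between the lines in this share depended on the length of the lists. It also depended on single libraries: leaving out RIL149 lineage 2 gave 967 regions only in RIL149, of which 41.8% were repeated. Leaving out RIL149 lineage 1 gave 4781 only in RIL50, of which 4.79% were repeated. Without RIL50 lineage 1 there were 3010 only in RIL50, and without RIL50 lineage 2 there were 3480, beside 371 only in RIL149.

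Within each line, the stronger regions were more often line-specific again at generation 10. In RIL50, 832 of the line-specific regions had a lower fold under 2.5, and 4.57% of them were line-specific again at generation 10 (95% Wilson interval 3.35% to 6.21%). The share was 10.95% (9.03% to 13.2%) of the 849 regions with a fold from 2.5 to 4, 41.3% (32.5% to 50.7%) of the 109 from 4 to 6, and 75.0% (62.3% to 84.5%) of the 56 at 6 or more. In RIL149, the same classes gave 55.1% of 49, 72.8% of 103, 95.7% of 47 and 93.1% of 29. The intervals cover counting error over regions only, and regions of 1 library are not independent.

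**Figure D3:**
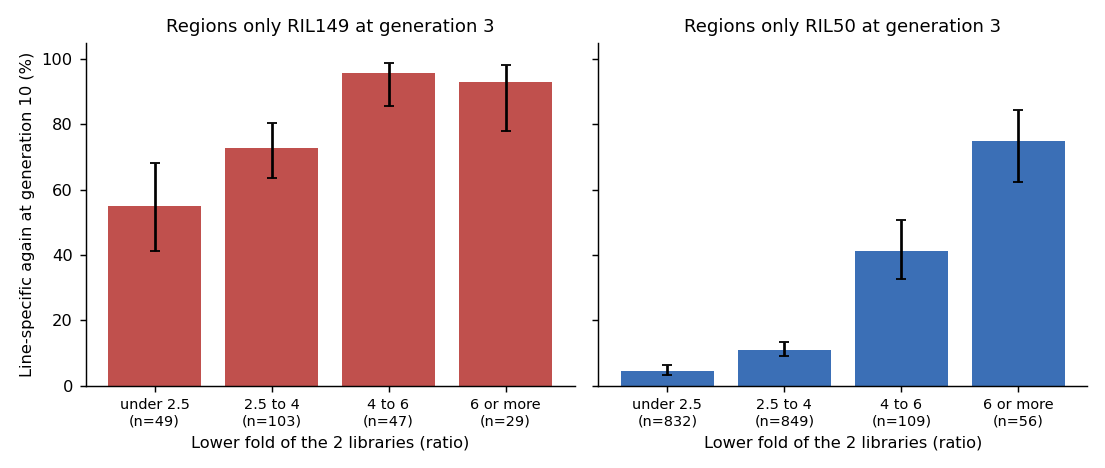
Share of generation 3 line-specific regions that were line-specific again at generation 10, in percent, by the lower fold of the 2 libraries that held the region; error bars are 95% Wilson intervals and n is the number of regions. The share rises from 4.57% to 75.0% with fold in RIL50 and from 55.1% to 93.1% in RIL149.

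Among regions with a named gene, the strongest only in RIL149 had folds of 6 to 17, and nearly all were line-specific again at generation 10. The first of them lay in PDE327, a pigment-defective locus (chromosome 4, 14975283 to 14975641). Its folds were 16.97 and 9.60 in RIL149 with none listed in RIL50, and at generation 10 they were 26.4 and 18.6 in RIL149 with a weak peak of 2.37 in RIL50 lineage 1. The region at the end of ATOZI1 (chromosome 4, 360448 to 360703) had nearly equal folds of 8.29 and 8.34. The region by ARO4, which encodes an armadillo repeat protein (chromosome 3, 9768674 to 9769168), had folds of 11.03 and 7.75, and that by RABA5a, a Rab GTPase (chromosome 5, 19280087 to 19280404) 8.29 and 7.61. All of these were listed in both RIL149 libraries at generation 10 too. A RIL50 peak lay within 500 bp of the regions at ARO4, PUM21 and SFP1, so their absence in RIL50 concerns the merged region and not its surroundings.

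The other strong regions in this direction had folds from 6.13 to 9.46. The region inside PUM21, a Pumilio-type RNA-binding protein gene (chromosome 5, 2982075 to 2982403), had folds of 6.68 and 7.31, and the region nearest to its relative PUM10 lay 3498 bp away, with 6.26 and 6.13. The end of BBX18, a B-box factor gene of light signalling, had folds of 7.93 and 6.50. NAPRT2, of NAD synthesis, had 8.60 and 6.50, and the zinc-finger gene ZAT11 had 8.52 and 6.35. Another region, at an end of NAPRT2 (chromosome 2, 9970388 to 9970718), was higher in RIL50, with 3.83 and 2.51 in RIL149 against 10.5 and 5.98. ZAT11 had an end peak in all 4 libraries, so its absence in RIL50 concerns this region and not the gene. RLP42, a receptor-like protein that senses fungal polygalacturonases, had 6.88 and 6.28 in a region inside the gene (chromosome 3, 9119442 to 9120016). The LOB-domain gene LBD26 had 9.46 and 6.28, and the region nearest to the sugar transporter gene SFP1, 3926 bp away, had 6.80 and 6.28. Except for the peak of RIL50 lineage 1 at PDE327, the 12 regions were line-specific again at generation 10, and at 11 of the 12 (all but BBX18) the lowest generation 10 fold in RIL149 lay above the lower one of generation 3.

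Among regions with a named gene, the strongest only in RIL50 reached higher folds than those only in RIL149. They were drawn from the larger set, of 1846 regions against 228. Over these full sets the median lower fold was lower in RIL50, at 2.57 against 3.25. The first of the strongest RIL50 regions lay 1581 bp from LOX3, a lipoxygenase gene of jasmonate synthesis (chromosome 1, 5975456 to 5975741). Its folds were 24.0 and 19.0 in RIL50, with none listed in RIL149, and 18.2 and 20.9 at generation 10. The region by EMB1075, a serine decarboxylase gene (chromosome 1, 16489065 to 16489276), had folds of 22.5 and 16.3. BGLU9, of the beta-glucosidases (chromosome 4, 13860530 to 13861146), had 19.8 and 13.1, and GRP3S, for a glycine-rich protein (chromosome 2, 1968287 to 1968565) had 19.5 and 12.4. In each of these regions the fold of lineage 1 was above that of lineage 2, and both were far from the list's lower limit of 1.17 to 1.36.

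The remaining regions of this set had lower folds in lineage 2. ACS1, an ACC synthase gene, had folds of 13.3 and 11.01. WIN2, a phosphatase gene, had 11.9 and 10.7, GDPD4, of the glycerophosphodiester phosphodiesterases, 12.1 and 10.6, and CF9 8.75 and 8.26. RRA2, an arabinosyltransferase gene of the cell wall (chromosome 1, 28196034 to 28196849), had 10.0 and 7.81. RPP5, an immune receptor gene of the NLR class with close copies beside it, had 7.62 and 7.01, and read placement there is uncertain. A second region at RPP5 (chromosome 4, 9545699 to 9545983) went the other way. It was listed in RIL149 alone, with 3.67 and 2.81, and again at generation 10 with 5.44 and 5.04. Except for UMAMIT32 and CBF2, the regions of this set were line-specific again at generation 10. The region nearest to UMAMIT32, an amino acid transporter family gene 4684 bp away, had 20.7 and 9.63 at generation 3 and was listed in 1 RIL50 library, with 13.5, at generation 10.

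**Figure D4:**
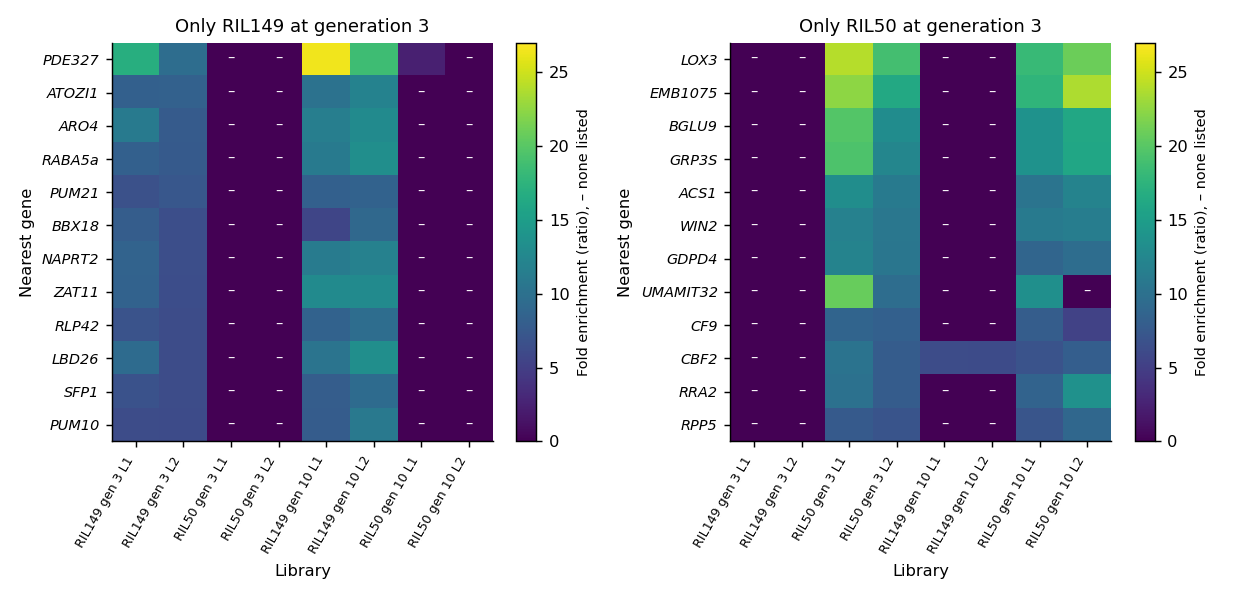
Fold enrichment (colour, a ratio) of the 12 strongest line-specific regions of each direction that have a named nearest gene, in the 8 libraries; a dash means that no peak was listed. At generation 3 the choice of regions fixes the empty columns; at generation 10, RIL50 lineage 1 at PDE327 with 2.37, both RIL149 libraries at CBF2 with 6.32 and 6.15, and RIL50 lineage 2 at UMAMIT32 with no peak are the exceptions.

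Among line-specific regions that were in all 4 lists at generation 10, the strongest lay on the RIL50 side. CBF2, a transcription factor gene of the cold response (chromosome 4, 13016198 to 13016636), had folds of 10.3 and 7.84 in RIL50 and none listed in RIL149 at generation 3. At generation 10 it had 6.32 and 6.15 in RIL149 and 6.88 and 8.03 in RIL50. FBS2, an F-box protein gene, went from 8.55 and 6.97 in RIL50 alone to 5.37 and 7.49 in RIL149 and 7.72 and 8.40 in RIL50. At CBF2 the RIL149 peaks of generation 10 were narrower, at 155 and 151 bp against 391 and 336 bp in RIL50.

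Others kept lower folds in RIL149 at generation 10. GLDH, the gene of the last enzyme of vitamin C synthesis, had 11.02 and 6.25 in RIL50 alone at generation 3, and 2.62 and 2.73 in RIL149 beside 7.12 and 8.20 in RIL50 at generation 10. PGR5, of cyclic electron flow in photosynthesis, had 9.78 and 5.90, then 2.42 and 3.19 in RIL149 beside 6.56 and 6.78. At GLDH and PGR5 a difference in the same direction thus remained in the listed folds although all 4 libraries held a peak. In the other direction the regions that came to be listed in all 4 libraries were weaker: the purine synthesis gene PUR7 had 6.57 and 3.91 in RIL149 at generation 3, and NIT1, SCPL13, WRKY11 and GAMMA-VPE had folds from 2.35 to 3.95. Of these 5, NIT1, SCPL13, WRKY11 and GAMMA-VPE were no longer line-specific with equal list lengths.

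Line-specific regions, and above all the lasting ones, lay outside genes more often than regions at large. Of all regions, 13.4% were in neither a protein-coding gene nor a gene end, a gene end being the window from 1000 bp outside to 200 bp inside. The share was 26.3% for the 228 regions only in RIL149 and 18.5% for the 1846 only in RIL50. It was 30.5% for the 174 repeated RIL149 regions, 28.0% for the 218 repeated RIL50 regions and 17.2% for the 1628 RIL50 regions that were not repeated. Gene-poor windows of 500 kb held 3.72% of all regions, 20.1% of the repeated RIL149 regions, 11.01% of the repeated RIL50 regions and 3.56% of the RIL50 regions that were not repeated. Loci labelled as pseudogenes lay within 1000 bp of 4.25% of all regions, 17.8% of the repeated RIL149 regions and 11.5% of the repeated RIL50 regions. These shares are descriptions, without a test.

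By chromosome, the repeated RIL149 regions had their highest share on chromosome 3 and the repeated RIL50 regions on chromosome 4. On chromosome 3, 60 regions belonged to RIL149 alone and 54 to RIL50 alone at both generations, which is 1.43% and 1.29% of its 4186 regions. On chromosome 4, the counts were 19 and 53 of 3276 regions (0.580% and 1.62%), and on chromosome 5 they were 30 and 33 of 4865 (0.617% and 0.678%). Chromosome 1 had 39 and 47 of 5603 (0.696% and 0.839%), and chromosome 2 had 26 and 31 of 3433 (0.757% and 0.903%). The regions only in RIL50 before the check at generation 10 were spread more evenly, with shares from 8.07% on chromosome 3 to 9.25% on chromosome 4. Among the 392 repeated regions, 22 stood in 6 runs of at least 3 with gaps under 10 kb. The longest, on chromosome 3 from 11097258 to 11124953, held 4 regions only in RIL149 and 2 only in RIL50, and 1 of its regions had a lower fold of 15.6, above that of PDE327, but no named gene nearest to it. Another, on chromosome 4 from 9495756 to 9499373, held 3 regions only in RIL50 at RPP4 and SNC1, NLR receptor genes that are close copies of each other.

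Where all 4 libraries held a peak, a small set of regions differed in strength between the lines, and most of these differences recurred. Folds of the 11514 shared regions were put on a log2 scale, each library was centred on its median, and the lines were compared with limma. At an adjusted p under 0.05, 146 regions were higher in RIL149 (1.27% of those tested) and 111 were higher in RIL50 (0.964%). The limma standard errors in fold follow a spread pooled over regions of like fold, and hardly that of the region's own libraries. ADT5, for example, passed with folds of 2.67 and 9.89 in RIL149 against 3.52 and 2.28 in RIL50 (log2 difference 1.17 ± 0.26, limma adjusted p = 0.00094). A small p therefore does not show that the 2 libraries of a line were alike there. Median folds of the regions higher in RIL149 were 7.92 and 7.01 in RIL149 and 4.63 and 4.00 in RIL50. The regions higher in RIL50 had 4.85 and 3.69 in RIL149 and 12.3 and 9.25 in RIL50. The listed folds of the lines did not overlap in 128 of the 146 and in 111 of the 111, against 42.8% of all shared regions. At generation 10, in libraries that the test did not use, 113 of the 125 regions higher in RIL149 that were in all 4 lists had the same direction (90.4%), and 101 of the 111 higher in RIL50 (91.0%). Over all shared regions the same direction was found for 47.3% of those with a higher fold in RIL149 and 56.9% of those with a higher fold in RIL50. Leaving out RIL149 lineage 2 gave 49 and 66 calls in the same order of directions, and leaving out RIL50 lineage 1 gave 66 and 42. Without RIL50 lineage 2, 56 were higher in RIL50. The median log2 difference of the regions called was 0.94 and -0.88 at generation 3, and 0.61 and -0.59 at generation 10.

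The 6 largest differences toward RIL149 with a named gene had log2 values from 1.26 to 1.92. The largest was in the region nearest to HERK1, a receptor kinase gene of cell elongation (chromosome 3, 17010206 to 17011349). Its folds were 7.51 and 6.79 in RIL149 and 2.68 and 2.06 in RIL50, a log2 difference of 1.92 ± 0.26 (SE, limma, adjusted p = 1.0e-10), and at generation 10 it was 10.1 and 12.0 in RIL149 against 2.19 in 1 RIL50 library. The region nearest to GRP23, a pentatricopeptide repeat protein gene (chromosome 1, 3361824 to 3362360), had 8.36 and 10.0 against 3.19 and 3.05 (log2 difference 1.87 ± 0.24, limma adjusted p = 6.7e-12). PAR2, a gene of the shade response, had 7.94 and 6.28 against 3.19 and 2.44 (1.65 ± 0.25, limma adjusted p = 2.7e-08). CRF11, a cytokinin response factor gene, had 14.1 and 8.79 against 5.15 and 4.19 (1.57 ± 0.21). LACS9, of fatty acid activation, had 6.49 and 4.65 against 3.17 and 2.55 (1.26 ± 0.26). The region nearest to TSD2, of pectin methylation, had 5.62 and 3.47 against 2.02 and 2.37 (1.33 ± 0.27, limma adjusted p = 0.00018). Without RIL149 lineage 1 or RIL50 lineage 1 TSD2 did not pass (limma adjusted p = 0.065 and 0.12). In each of the 6 regions, which were chosen by this difference, both RIL149 folds lay above both RIL50 folds. The listed folds of the lines did not overlap in 42.8% of all shared regions.

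The 6 largest differences toward RIL50 with a named gene had log2 values from -1.34 to -1.59. WAVE5, of the complex that drives actin branching (chromosome 4, 10247369 to 10248211), had folds of 3.91 and 3.25 in RIL149 and 14.4 and 12.4 in RIL50, a log2 difference of -1.59 ± 0.22 (SE, limma, adjusted p = 2.2e-10). SYNC3, which encodes an asparaginyl-tRNA synthetase, had 4.54 and 4.13 against 17.9 and 13.5 (-1.53 ± 0.21, limma adjusted p = 1.4e-10). The region at ADR1-L1, a helper NLR of immune signalling (chromosome 4, 16056421 to 16057089), had 2.97 and 2.07 against 8.75 and 8.19 (-1.46 ± 0.25, limma adjusted p = 1.5e-06). ABCB1, an auxin transporter gene (chromosome 2, 15507292 to 15508123), had 3.99 and 2.58 against 12.0 and 9.56 (-1.43 ± 0.23). The nuclease gene ENDO2 had 4.77 and 3.47 against 14.9 and 11.1 (-1.35 ± 0.21), and Hrd1B, of protein degradation at the endoplasmic reticulum, 4.07 and 3.47 against 14.5 and 9.56 (-1.34 ± 0.22). At generation 10 the log2 differences of these 6 regions ranged from -0.55 at ENDO2 to -1.55 at ABCB1, with the same sign in each.

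**Figure D5:**
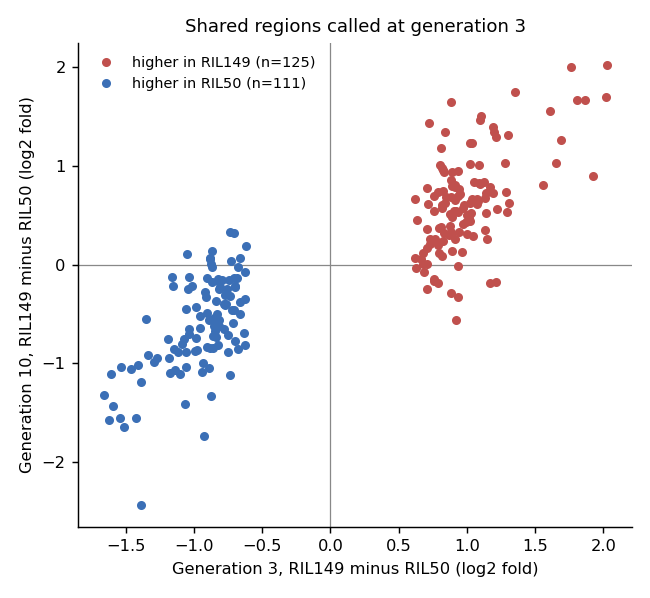
Log2 difference in fold, RIL149 minus RIL50, at generation 3 (horizontal) and generation 10 (vertical), for the regions that passed the limma test at generation 3 and hold a peak in all 4 generation 10 libraries; each point is a region. Of the 125 higher in RIL149, 113 lie above 0 at generation 10, and of the 111 higher in RIL50, 101 lie below 0.

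Peak width separated the lines in very few regions. With limma on log2 width, 1 region was wider in RIL149 (0.00869% of those tested) and 2 were wider in RIL50 (0.0174%), while 460 and 606 had an unadjusted p under 0.05. The nearest genes of the 3 have no symbol, and the regions were named after their values were seen. The region at the end of AT2G35920 (chromosome 2, 15074867 to 15075589) was 723 and 614 bp wide in RIL149 and 181 and 147 bp in RIL50 (log2 difference 2.34 ± 0.21, limma adjusted p = 0.031). The region in AT2G27660 (chromosome 2, 11798820 to 11800356) was 331 and 253 bp wide in RIL149 and 1473 and 1537 bp in RIL50 (-2.07 ± 0.17, limma adjusted p = 0.031), although its folds of 12.2 and 10.3 in RIL149 and 10.5 and 10.0 in RIL50 overlapped. The region nearest to AT5G56040 had 221 and 207 bp against 1014 and 1052 bp (-1.96 ± 0.19, limma adjusted p = 0.048). At generation 10 the 3 differences had the same sign, with log2 values of 1.90, -1.51 and -1.08. No width call remained with either RIL149 library left out, and leaving out a RIL50 library gave 34 wider in RIL149 and 53 wider in RIL50 without lineage 1, and 47 and 56 without lineage 2.

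Named regions with the lowest p in width did not pass the test. GRP23 was 522 and 436 bp wide in RIL149 against 196 and 166 bp in RIL50, and WAVE5 was 250 and 161 bp against 759 and 843 bp, each with a limma adjusted p of 0.067. PKT3, a thiolase gene of peroxisomal fatty acid breakdown, had 761 and 674 bp against 249 and 319 bp. The region nearest to AP1, the floral identity gene, had 388 and 222 bp against 1171 and 1098 bp at generation 3, and 900 and 738 bp against 1154 and 591 bp at generation 10, where the lines overlapped. The others were ESL1, SSR16, ALDH3I1 and COX19-1 toward RIL149 and MAP65-4, GLU2, SAHH2 and GSTU18 toward RIL50, with limma adjusted p from 0.067 to 0.10.

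At the level of genes, 99 of 27444 protein-coding genes had an end peak in both RIL149 libraries and no RIL50 library (0.361%), and 1058 the reverse (3.86%). At generation 10 the same held again for 72 of the 99 (72.7%) and for 119 of the 1058 (11.2%), and 397 of the 1058 had an end peak in all 4 libraries. With equal list lengths the counts were 310 and 563. Without RIL149 lineage 2 there were 469 genes in the RIL149 set, without RIL149 lineage 1 there were 3343 in the RIL50 set, without RIL50 lineage 1 there were 186 in the RIL149 set, and without RIL50 lineage 2 there were 159 and 1969.

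Of 7 maintenance genes of CG methylation, 2 had a region that could be tested, and none of the 7 was line-specific. Over all genes, 0.361% were open in RIL149 alone and 3.86% in RIL50 alone. Of all shared regions, the limma test called 1.27% higher in RIL149 and 0.964% higher in RIL50. With shares this low, the absence of calls among so few genes says little about them. MET1, the methyltransferase that copies CG methylation, had a region at its end (chromosome 5, 19938532 to 19938967) with folds of 6.88 and 3.84 in RIL149 and 7.00 and 5.14 in RIL50. The chromatin remodeller gene DDM1 (chromosome 5, 26653265 to 26653659) had 5.79 and 4.95 against 7.50 and 4.80. Neither passed the limma test (log2 differences 0.09 ± 0.23 and 0.15 ± 0.23, limma adjusted p = 0.92 and 0.84), and for each gene the folds of the lines overlapped. The genes VIM1 to VIM5, for proteins that recognise hemimethylated sites, had no end peak in any of the 4 libraries. The nearest peak to VIM4 lay 1372 bp away in RIL50 lineage 1 but 28200 bp or more in each of the other 3 libraries. For VIM2 the distance was 5768 bp in RIL50 lineage 1 and 22180 bp or more elsewhere. These 2 genes are close copies, so read placement there is uncertain.

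Genes of other methylation pathways had end peaks in fewer RIL149 libraries, as did genes at large. Of 19 matched genes of RNA-directed DNA methylation, 9 and 7 had an end peak in RIL149 and 13 and 12 in RIL50, while over all protein-coding genes the counts were 15761 and 12773 against 17179 and 16363. Of the 19 genes, 2 were open in RIL50 alone, as were 3.86% of all genes. They were DRD1, a chromatin remodeller of the pathway, with folds of 3.71 and 2.48, and KTF1, which links RNA polymerase V transcripts to AGO4, with 2.27 to 3.40 over its peaks. DMS3, of the same list, had an end peak in all 4 libraries but regions specific to either line. The region from 18255706 to 18255976 on chromosome 3 was in RIL149 alone, with 6.10 and 5.09, and again at generation 10 with 5.91 and 8.57. That from 18261421 to 18261573 was in RIL50 alone, with 2.64 and 2.95. SUVH5, a histone H3K9 methyltransferase gene, had 5.66 and 3.31, the demethylase gene DML2 2.17 to 3.91 over its peaks, and HTA9, of the H2A.Z variants, 4.02 and 3.54, each with none listed in RIL149 at generation 3. At generation 10, RIL149 had end peaks at DRD1, KTF1, SUVH5 and HTA9 in both libraries and at DML2 in 1. RIL50 had them at DRD1, SUVH5 and HTA9 in both libraries, at DML2 in 1 and at KTF1 in none. The gene of the chromatin assembly factor subunit FAS1, with a peak in all 4 libraries, was lower in RIL149, with 4.93 and 2.58 against 10.3 and 6.25 (log2 difference -0.86 ± 0.24, limma adjusted p = 0.020).

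The matched immune receptor genes included RLP42, open in RIL149 alone, and RPP4, open in RIL50 alone, as were 0.361% and 3.86% of all genes, respectively. RPP4 had regions with folds of 5.01 and 5.98 (chromosome 4, 9495756 to 9496080) and 3.501 and 2.25 (chromosome 4, 9496356 to 9496604) in RIL50. At generation 10, RLP42 and RPP4 were again specific to their lines. Of 14 shared regions at the ends of these genes, ADR1-L1 was the 1 that passed the limma test, which called 0.964% of all shared regions higher in RIL50 and 1.27% higher in RIL149.

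Of 13 matched genes of known Ler and Cvi variation, QQS, an orphan gene of starch content whose methylation varies in nature, was open in RIL149 alone, as were 0.361% of all genes. Its 2 regions (chromosome 3, 12348862 to 12349069 and 12349511 to 12349859) had folds of 4.46 and 3.40, and of 8.44 and 5.54, and both were listed again in RIL149 alone at generation 10. FRI, a regulator of flowering time (chromosome 4, 272243 to 272475), had 6.85 and 5.97 in RIL149 against 4.83 and 4.32 in RIL50 (log2 difference 0.80 ± 0.24, limma adjusted p = 0.039), and a smaller log2 difference of 0.12 at generation 10. The gene nearest to this region is AT4G00651. The stronger region of FRI (chromosome 4, 268004 to 268944) had 16.6 and 16.8 against 18.3 and 17.5. With each library centred on its median, its log2 difference was 0.21 ± 0.18, which did not pass (limma adjusted p = 0.68).

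Light, clock and stress genes were mostly open in all 4 libraries, with 16 of 19 clock and light signalling genes and 16 of 19 stress transcription factor genes. None of the 24 shared regions of the clock list and none of the 26 of the photosynthesis list passed the limma test, where 1.27% and 0.964% of all shared regions did in the 2 directions. LHCB3, a light-harvesting protein gene, was the 1 of 21 photosynthesis genes open in RIL50 alone, with folds of 5.97 and 3.12. At generation 10, LHCB3 was listed in both RIL149 libraries and 1 RIL50 library. KNAT1, a homeobox gene, was the 1 of 8 shoot meristem genes open in RIL50 alone, with 3.40 and 2.78, and was also listed in 1 RIL149 library at generation 10. Over all genes, 3.86% were open in RIL50 alone at generation 3. In the cold response cluster the lines differed in both directions. Beside CBF2, a region at 1 end of CBF3 (chromosome 4, 13017721 to 13018158) was also listed in RIL50 alone, with 6.68 and 4.81, and at generation 10 in all 4 libraries. Another region at an end of CBF3 (chromosome 4, 13019231 to 13019496) was higher in RIL149, with 7.52 and 7.18 against 4.63 and 4.31 (log2 difference 1.03 ± 0.23, limma adjusted p = 0.0011). At generation 10 the region at CBF3 had 7.63 and 7.06 in RIL149 against 4.07 and 4.87 in RIL50. Whether reads can be placed to single genes of this cluster was not tested.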

How the data were processed

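Peak lists were deposited, narrowPeak per the file headers. MACS2 2.2.9.1, BWA 0.7.17, Trimmomatic 0.39, Picard and build TAIR10 are in the submitters' processing notes, without their roles. The fold column is the authors' ratio of summit pileup to local background. Deposited p-values and q-values are −log10 transformed. The score is the authors' integer form of q. Read shifting and mapping quality: not given in the sources used here. Plants carry Ler and Cvi alleles while TAIR10 is Col-0, so a sequence difference and closed chromatin cannot be told apart where no peak is listed. The lists hold no read totals; background pileup was solved from fold and p with the Poisson relation, to 0.01 on the −log10 p.

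Groups came from the labels; file names give other generation numbers, and the labels were followed. For library values the exact permutation test, two-sided, had 6 arrangements, and shared regions were tested with limma 3.58.1 in R 4.3.3 (trend, Benjamini-Hochberg over all 11514). The merging and limma steps were checked on simulated data. Genes came from RefSeq TAIR10.1, whose name differs from the files' build. Gene ends and peaks were aligned within 250 bp in 25 of 25 bins of 5 Mb. That table has no strand, exons or UTRs. Of 191 list entries, 182 matched; CLSY2, CLSY3, CLSY4, H1.1, H1.2, H1.3, RPP7, AOP2 and EF1A did not. The members and lists were chosen with earlier results of these data known. Named regions were the 12 with the highest lower fold per direction, the 6 largest limma differences per direction and measure (those with the lowest p, uncalled, where too few passed), the 5 strongest found in all 4 generation 10 libraries, and list genes that were line-specific or passed limma, the last chosen after their values were seen; some that met these rules are not reported here. Alternatives were other peak thresholds, list lengths, overlaps, gene windows, normalizations, a replicate block and leaving out each library.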

Additional observations from a re-analysis of the deposited data

Results flagged for a closer look

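The number of nuclear peaks was flagged because the lines changed places between generations: RIL149 minus RIL50 was -3661 at generation 3 and 2617 at generation 10, and in each generation the libraries of the lines did not overlap. The difference between these, -6278 peaks, had an exact permutation p of 0.111 over 36 arrangements of generation labels within lines, two-sided. Lineage numbers 1 and 2 recur at both generations within each line. Neither this test nor the limma interaction below paired the libraries by them.

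Of the 11000 regions with a peak in all 8 libraries, 2 had a line difference in fold that itself differed between generations (limma interaction, adjusted p under 0.05; 1163 had an unadjusted p under 0.05). At a region inside YSL3, a metal transporter gene, folds were 6.06 and 5.09 in RIL149 and 4.82 and 3.28 in RIL50 at generation 3, and 5.57 and 6.90 against 8.91 and 12.1 at generation 10, a log2 difference of 1.75 between the line differences (limma adjusted p = 0.0021). At the region nearest to AT4G36105, folds were 10.2 and 8.42 against 9.47 and 5.94 at generation 3, and 12.8 and 14.3 against 2.61 and 3.54 at generation 10, a log2 difference of -1.34 (limma adjusted p = 0.046). For width, 0 of the 11000 passed limma and 686 had an unadjusted p under 0.05.

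Organelle peaks lie outside these comparisons. The 4 generation 3 lists held 890 mitochondrial peaks together, from 213 to 242 a library, and 306 plastid peaks, from 72 to 79.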

How the results depend on the processing

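Over 14 summary results and 110 alternatives, 66 kept their direction (library values) or stayed within 1.5 times (counts) or the 95% interval (shares), 43 moved and 1 reversed. The peak number difference was -5634 to -1688 with 1 library left out, covered length -2.85 to -0.99 Mb and median width -38.5 to -10.5 bp. The median fold difference of -0.28 ranged from -0.82 to 0.27, turning positive without RIL50 lineage 1. Leaving out a library gave 315 to 967 regions only in RIL149 (41.8% to 64.1% repeated), 2062 to 4781 only in RIL50 (4.79% to 10.6% repeated), and 131 to 469 and 1178 to 3343 line-specific genes; it relaxes the rule, so these counts rise. It gave 49 to 124 fold calls higher in RIL149 and 42 to 99 higher in RIL50, and 0 to 47 and 0 to 56 width calls. Equal list lengths gave 494 and 682 regions (39.1% and 33.1% repeated) and 310 and 563 genes. A −log10 q of at least 5 gave a repeated share of 10.2% for RIL50. Width calls were 5 toward RIL50 with quantile normalization, and 4 and 10 with 1 peak in every library. The cause of these shifts was not tested.

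With lineage number as a replicate block, limma called 247 and 162 regions in fold and 166 and 372 in width. Lineage numbers are shared between lines as names only, and the deviations of same-numbered libraries correlated at 0.23 in fold and 0.059 in width over the shared regions. An absent peak means that none was listed in that library, not that the chromatin was closed.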
